A study of Mus musculus with 8 samples.

Results

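The genes described here are 9 neuropeptide precursors of the retina: Penk, Vip, Npy, Tac1, Sst, Cck, Crh, Gal and Adcyap1. They were chosen by name as peptides of amacrine and ganglion cells around Penk, and Penk was selected on its measured signal, which was lower at 4 weeks than at 1 week in the retinas of MPTP-treated mice. The change with time in the MPTP groups is therefore given as a description for all 9 genes, without a test, and no p is given for Penk in any comparison that uses the MPTP arrays. Each of the 9 genes had 1 probe set, and all 9 were among the 19938 genes measured, with no filter on low values.

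Male C57BL/6 mice, 6 weeks old at the start, were injected with saline or with MPTP. MPTP is a toxin of dopamine neurons: these cells take up its product MPP+, which inhibits their mitochondria. Retinas were examined after 1 week (7 days) or 4 weeks (28 days), which gave 4 groups: saline 1 week, MPTP 1 week, saline 4 weeks and MPTP 4 weeks. Each group had 6 mice and 2 arrays, and the RNA of 4 retinas was pooled for each array, so a single mouse is not resolved and whole retina rather than 1 cell type was measured. Nothing in the labels ties a pool to particular mice, so p-values measure only the spread between these arrays, which may be technical.

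Neuropeptides are made as larger precursors, cut by prohormone convertases, packed into dense-core vesicles and released beside a fast transmitter, and they act on G protein-coupled receptors. In the retina they are known chiefly from sparse classes of amacrine cells, most of which also release GABA or glycine, and from some ganglion cells. Transcription of several of these genes, among them Penk, Sst and Vip, is known to respond to cyclic AMP through CREB, a factor that binds the cyclic AMP response element (CRE).

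Promoter sequence is shown because that element is a feature several of these genes share and the choice of genes did not use it. RefSeq promoters (mouse build GRCm38.p6) matched 7 of the 9 genes by symbol, all but Penk and Crh. The 250 bases before each gene start were searched on both strands for the full palindrome TGACGTCA, for TGCGTCA, and for the shorter CRE core TGACG, which lies within TGACGTCA on both strands and overlaps TGCGTCA on the opposite strand. The palindrome was found in Sst at position -48 relative to the start, and in 1.55% of the 32851 promoters of the same length. TGCGTCA was found in Tac1 at position -199 and in Cck at position -49, and in 1.75% of all promoters. The core TGACG was found in 5 of the 7 genes, and in 17.8% of all promoters. Besides those 3 genes, it was in Vip at position -79 and in Adcyap1 at position -91 from 1 of its annotated starts (-242 from another). A gene was counted if any of its annotated starts had the match. The shares are over single promoters, of which a gene can have several, so counts and shares are in unlike units. Tac1 held a further core on the opposite strand at position -43, whose window is not printed. The windows below run 5′ to 3′ on the strand of the gene with up to 20 bases on each side of the match, and the capitals mark the match.
Sst, chr16:23890865-23890912, minus strand: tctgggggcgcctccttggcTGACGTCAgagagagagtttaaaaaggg
Tac1, chr6:7554842-7554888, plus strand: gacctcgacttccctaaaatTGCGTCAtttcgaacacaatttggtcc
Cck, chr9:121495717-121495763, minus strand: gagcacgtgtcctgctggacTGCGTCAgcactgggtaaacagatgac
Vip, chr10:5639119-5639163, plus strand: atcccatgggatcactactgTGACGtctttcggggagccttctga
Adcyap1, chr17:93198906-93198950, plus strand: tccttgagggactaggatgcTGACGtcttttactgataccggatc
A match describes the letters in this window, and no binding was measured in these samples. Npy and Gal held none of the 3 motifs in the window.

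Signal is given in log2 units, as deposited, so a difference of 1 is a doubling. The markers of rods, the main cell of the mouse retina, had a mean signal of 11.4 to 11.5 on every array (12 of 14 listed genes measured), and those of amacrine cells (24 genes) and ganglion cells (18 of 20) stayed within 7.99 to 8.04 and 8.10 to 8.17. Saline 1 week array 2 and MPTP 1 week array 1 stood apart from the other 6 arrays on the first principal component (38.3% of the variance) and had the widest spread of signal. The lens markers ranged from 6.71 (MPTP 1 week array 1) to 7.82 (MPTP 1 week array 2), and those of pigment epithelium and choroid from 7.14 to 7.73 on the same arrays. The part of these differences between arrays in the results was not tested, and values without the 2 arrays that stand apart are given beside the comparisons whose values they moved most.

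The signal of Penk, Tac1, Sst, Npy, Vip and Cck lay between percentiles 57.6 (Cck) and 80.5 (Tac1) of the mean signal of all genes. Adcyap1 stood at percentile 25.7, Gal at 13.9 and Crh at 6.67. Olfactory receptor genes, which are largely silent outside the nose, give a scale for dim signal: 39.5% of 1027 such genes had a lower mean than Crh, 65.6% a lower mean than Gal and 85.5% a lower mean than Adcyap1, against 98.7% or more for the other 6. For Crh and Gal the files cannot separate signal from background.

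Penk, which encodes proenkephalin, the precursor of the enkephalin opioid peptides of amacrine cells, varied more between arrays than nearly any other gene. At 1 week its signal was 7.71 and 8.74 in the saline arrays 1 and 2, and 8.37 and 8.996 in the MPTP arrays 1 and 2. At 4 weeks it was 7.43 and 7.71 in saline and 7.54 and 8.05 in MPTP. The 3 highest values were all from 1 week, but saline 1 week array 1 lay within the range of the 4-week arrays. Ordered by group mean, MPTP 1 week (8.68) came first, then saline 1 week (8.23), MPTP 4 weeks (7.80) and saline 4 weeks (7.57), and the arrays of each group overlapped with those of the next group in that order. The distance between the lowest and highest array was 1.56, rank 11 of 19938 genes, against a median of 0.33 over all genes. This range includes the MPTP arrays on which Penk was selected, so its rank is a description and nothing is drawn from it. The standard deviation of Penk within groups was 0.47, rank 30, against a median of 0.10.

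**Figure D1:**
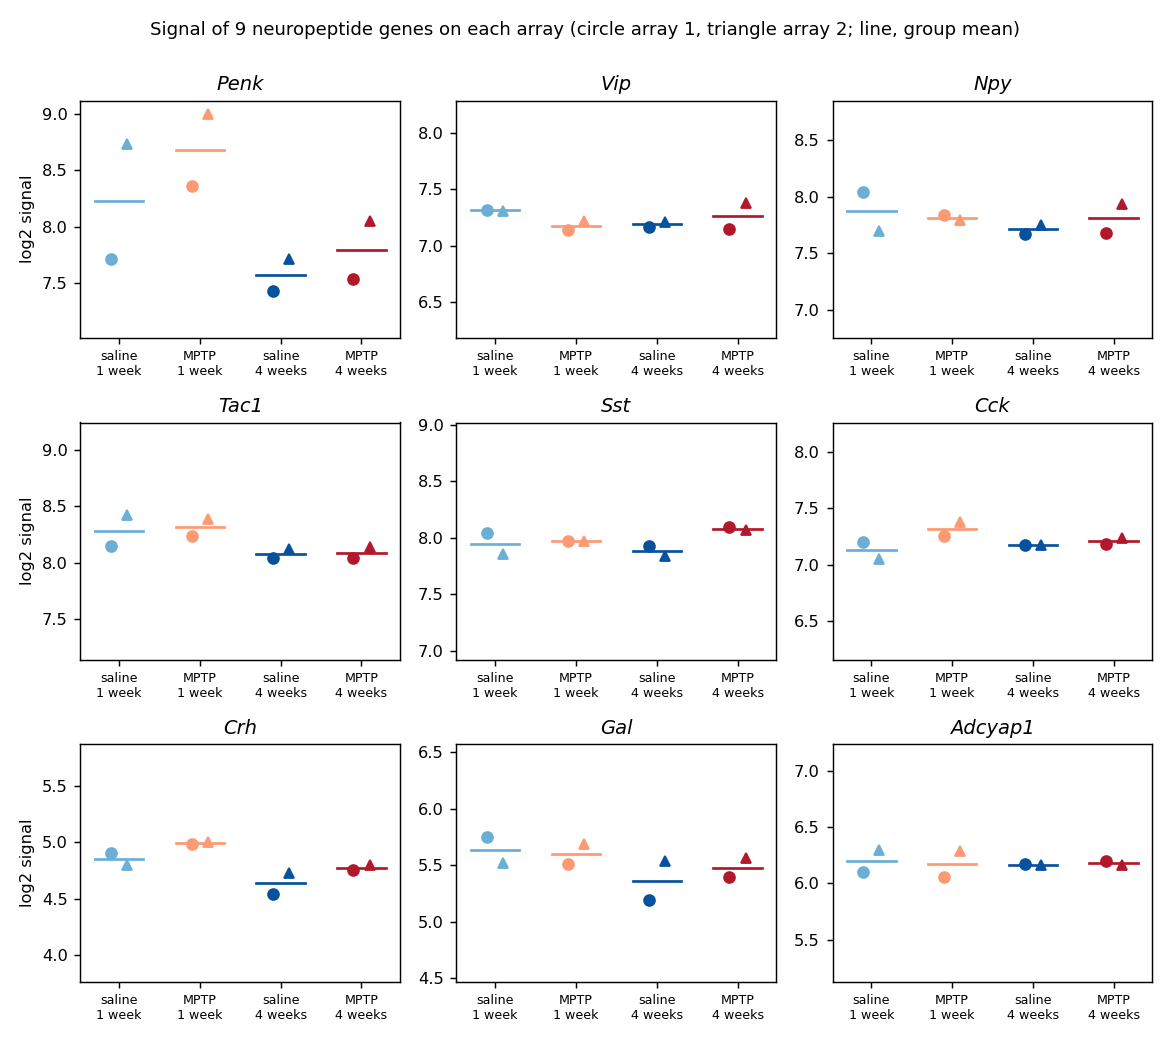
Log2 signal (vertical axis) of the 9 genes on each of the 8 arrays, by group (horizontal axis), with circles for array 1, triangles for array 2 and a line at the group mean. All panels span the same number of log2 units; Penk runs from 7.43 to 8.996, and the other 8 genes vary far less.

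The other 8 genes had ranges of 0.24 (Adcyap1 and Vip) to 0.55 (Gal). Those of Vip, Sst, Cck and Adcyap1 were below the median of all genes. The array numbered 2 had the higher Penk signal in each of the 4 groups, by 1.02 in saline 1 week, 0.63 in MPTP 1 week, 0.28 in saline 4 weeks and 0.51 in MPTP 4 weeks. Tac1 showed the same in all 4 groups, and 4.05% of all genes did.

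**Figure D2:**
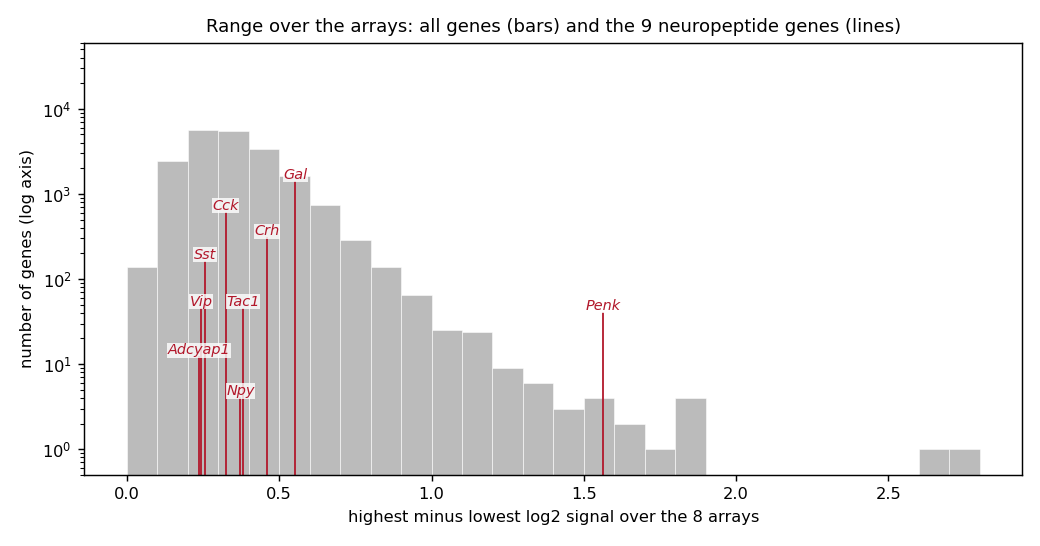
Number of genes (vertical axis, log scale) by the difference between the highest and lowest log2 signal over the 8 arrays (horizontal axis), with the 9 neuropeptide genes marked by lines whose heights only separate the names. Penk at 1.56 lies in the far tail, and the others lie between 0.24 and 0.55. The range of Penk includes the MPTP arrays on which it was selected.

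Tac1, which encodes substance P and neurokinin A and is expressed in amacrine and some ganglion cells, had a smaller range than Penk. Its signal at 1 week was 8.15 and 8.42 in saline and 8.24 and 8.39 in MPTP. At 4 weeks it was 8.04 and 8.12 in saline and 8.04 and 8.13 in MPTP. All 4 arrays of 1 week were above all 4 of 4 weeks, by a margin of 0.01 between the nearest arrays.

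Crh, the precursor of corticotropin-releasing hormone, had signal of 4.91 and 4.80 in saline and 4.99 and 5.01 in MPTP at 1 week. At 4 weeks it was 4.55 and 4.73 in saline and 4.75 and 4.80 in MPTP. The arrays of 1 week were again all above those of 4 weeks, with a margin of 0.0049, and within each time the MPTP arrays were above the saline arrays. These values lie in the dim range where olfactory receptor genes lie too.

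Sst, the precursor of somatostatin, an inhibitory peptide of wide-field amacrine cells, was 8.05 and 7.85 in saline and 7.97 and 7.97 in MPTP at 1 week. At 4 weeks it was 7.93 and 7.84 in saline and 8.09 and 8.07 in MPTP. The MPTP 4 weeks arrays were the highest of all 8, and the saline 1 week arrays spanned almost the whole remaining range.

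Cck, the precursor of cholecystokinin, was 7.21 and 7.06 in saline and 7.26 and 7.38 in MPTP at 1 week. At 4 weeks it was 7.18 and 7.18 in saline and 7.19 and 7.24 in MPTP. The MPTP 1 week arrays were the highest and saline 1 week array 2 the lowest.

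Vip encodes vasoactive intestinal peptide, made by a class of GABA-releasing amacrine cells. Its signal was 7.32 and 7.31 in saline and 7.14 and 7.22 in MPTP at 1 week, and 7.17 and 7.21 in saline and 7.15 and 7.38 in MPTP at 4 weeks. The highest value, MPTP 4 weeks array 2, and the low value of array 1 of the same group bracketed nearly all other arrays.

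Npy, the precursor of neuropeptide Y, ranged from 7.67 (saline 4 weeks array 1) to 8.04 (saline 1 week array 1). Gal, the precursor of galanin, ranged from 5.19 (saline 4 weeks array 1) to 5.75 (saline 1 week array 1). Adcyap1, the precursor of PACAP, a peptide of the melanopsin ganglion cells and a relative of VIP, ranged from 6.06 (MPTP 1 week array 1) to 6.30 (saline 1 week array 2). In none of these 3 genes did the arrays of a treatment or of a time separate over all 8 arrays.

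The first comparison, of MPTP with saline after 1 week, addresses short-term regulation. None of the 9 genes passed the threshold of an adjusted p under 0.05, and neither did any other gene (0 of 19938, 0%, by limma; 842 genes, 4.22%, at an unadjusted p under 0.05). Penk stood 0.46 ± 0.31 higher with MPTP (standard error of the limma fit, n = 2 arrays per group). The value ran from -0.06 without saline array 1 to 0.97 without saline array 2. It was 1.28 without both arrays that stand apart, which leaves 1 array against 1 at 1 week. In whole retina, fewer cells of a type and less RNA per cell cannot be told apart. Cck stood at 0.19 ± 0.09 (limma adjusted p = 0.9998, unadjusted p = 0.0716) and Crh at 0.14 ± 0.10, each higher in both MPTP arrays than in both saline arrays. Vip stood at -0.14 ± 0.10, lower in both MPTP arrays. These 3 of 9 genes had no overlap between groups, against 26.3% of all genes.

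The other 5 differences at 1 week were -0.05 ± 0.13 for Npy, 0.03 ± 0.11 for Tac1, 0.02 ± 0.09 for Sst, -0.03 ± 0.14 for Gal and -0.03 ± 0.11 for Adcyap1. The 95% interval of Tac1 ran from -0.22 to 0.28 and that of Adcyap1 from -0.26 to 0.21, and the arrays do not exclude changes within them. Without the 2 arrays that stand apart, 1 array against 1 at 1 week, Tac1 stood at 0.24, Npy at -0.24, Adcyap1 at 0.18 and Sst at -0.07. The sign of Gal and of Adcyap1 was positive after quantile normalization. Of the 9 genes, 5 were above 0 with a median of 0.02, against 46.9% of all genes above 0 and a median of -0.0081.

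The same comparison after 4 weeks addresses long-term regulation. No gene passed (0 of 19938, 0%, by limma; 381 genes, 1.91%, at an unadjusted p under 0.05). Sst stood 0.20 ± 0.09 higher with MPTP (limma adjusted p = 0.9999, unadjusted p = 0.0649), a fold of 1.15, with both MPTP arrays above both saline arrays, and its value stayed between 0.15 and 0.24 when any 1 array was left out. Crh stood at 0.14 ± 0.10 and Cck at 0.03 ± 0.09, also without overlap, which makes 3 of 9 genes against 35.3% of all genes. Crh stood at 0.04 without saline 4 weeks array 1 and at 0.23 without saline 4 weeks array 2. Penk stood at 0.22 ± 0.31, from -0.03 without MPTP array 2 to 0.48 without MPTP array 1. Gal stood at 0.11 ± 0.14, Npy at 0.10 ± 0.13, Vip at 0.08 ± 0.10, Adcyap1 at 0.01 ± 0.11 and Tac1 at 0.0083 ± 0.11.

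All 9 values at 4 weeks were above 0, with a median of 0.10, where 51.8% of all genes were above 0 and the median was 0.0043. For 7 of them the value was smaller than its own standard error, and those of Adcyap1 and Tac1 were below 0 once all arrays were set to a common median (-0.00335 and -0.00694). Adcyap1 was also below 0 after quantile (-0.02) and cyclic loess (-0.02) normalization.

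**Figure D3:**
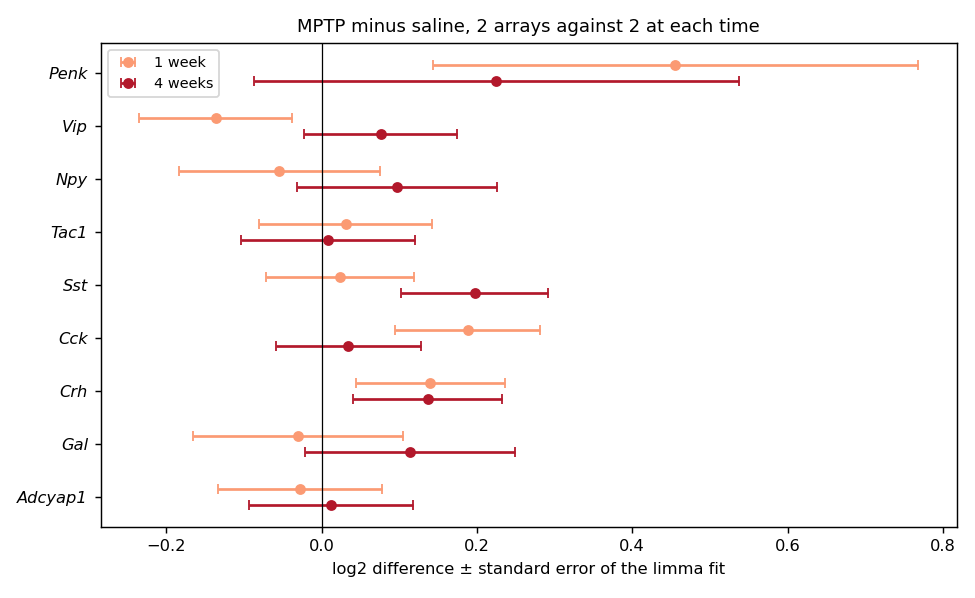
Log2 difference between MPTP and saline (horizontal axis) for the 9 genes, at 1 week (light) and 4 weeks (dark), with bars of 1 standard error of the limma fit from 2 arrays against 2. Penk has the largest difference and the widest bars, 0.46 ± 0.31 and 0.22 ± 0.31; the differences of the other genes lie between -0.14 and 0.20.

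MPTP against saline over both times asks what the 4 MPTP arrays share against the 4 saline arrays. No gene passed (0 of 19938, 0%, by limma; 950 genes, 4.76%, at an unadjusted p under 0.05). Crh stood at 0.14 ± 0.06 (n = 4 per treatment, limma unadjusted p = 0.0497, adjusted p = 0.973), at a signal that cannot be separated from background. Its values ran from 0.10 to 0.18 over the alternatives run for it, which leave out the filter on dim genes that removes it. The standard error of Crh was 0.09 in place of 0.06 with eBayes with a trend and robust. Cck stood at 0.11 ± 0.07, Sst at 0.11 ± 0.07 and Penk at 0.34 ± 0.21. Penk stood at 0.11 without saline 1 week array 1 and at 0.58 without the 2 arrays that stand apart. Of the 9 genes, 7 were above 0 with a median of 0.04, where 49% of all genes were above 0. For none of the 9 were all 4 MPTP arrays on 1 side of all 4 saline arrays, which 2.50% of all genes showed. The 95% intervals of Vip (-0.19 to 0.13), Tac1 (-0.14 to 0.18) and Adcyap1 (-0.16 to 0.15) give the sizes of change that these arrays do not exclude, and those of Npy (-0.17 to 0.22) and Gal (-0.16 to 0.25) were wider.

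Whether the short-term and long-term differences are unequal was tested as an interaction, with the value at 1 week taken from that at 4 weeks. No gene passed (0 of 19938, 0%, by limma; 391 genes, 1.96%, at an unadjusted p under 0.05). Of the 9 genes, 5 were above 0, where 52.2% of all genes were. Vip, lower with MPTP at 1 week and higher on average at 4 weeks, had a difference of 0.21 ± 0.14 (limma adjusted p = 0.9999, unadjusted p = 0.159), and was above 0 in every alternative setting (0.10 to 0.33). Sst stood at 0.17 ± 0.13, Npy at 0.15 ± 0.18, Gal at 0.14 ± 0.19, and Cck at -0.15 ± 0.13. Penk stood at -0.23 ± 0.44 as a description, and ran from -1.06 without the 2 arrays that stand apart to 0.28 without saline 1 week array 1. Tac1 (-0.02 ± 0.16), Crh (-0.0037 ± 0.14) and Adcyap1 (0.04 ± 0.15) had either sign, depending on the setting. Npy and Gal turned too, with Npy at -0.02 without saline 1 week array 1 and Gal at -0.03 without saline 4 weeks array 1. Without the 2 arrays that stand apart, Npy stood at 0.34, Tac1 at -0.24 and Adcyap1 at -0.17.

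The change from 1 to 4 weeks in saline mice asks how these genes differ with time without MPTP, and its difference uses none of the MPTP arrays on which Penk was selected. The standard error and p of the fit do use them, since the spread is pooled over all 4 groups. Penk was 0.65 ± 0.31 lower at 4 weeks by group mean (log2 difference -0.65, limma unadjusted p = 0.0635, adjusted p = 0.9997), a fold of 0.64, the second lowest value (rank 2) of 19938 genes. From the 4 saline arrays alone the standard error was 0.28 (limma unadjusted p = 0.0449, adjusted p = 0.9996). In both fits limma draws the spread of each gene toward that of all genes, which lowers the standard error of Penk. The standard deviation of Penk itself in saline was 0.72 at 1 week and 0.20 at 4 weeks. The nearest arrays of the 2 times were only 0.0010 apart, and without saline 1 week array 2 the difference was -0.14, against -1.16 without saline 1 week array 1. Crh stood at -0.22 ± 0.10 (limma unadjusted p = 0.0478, adjusted p = 0.9997), Gal at -0.27 ± 0.14, Tac1 at -0.20 ± 0.11, Npy at -0.16 ± 0.13 and Vip at -0.12 ± 0.10. Sst (-0.07 ± 0.09), Adcyap1 (-0.03 ± 0.11) and Cck (0.05 ± 0.09) were close to 0.

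No gene passed in saline (0 of 19938, 0%, by limma; 424 genes, 2.13%, at an unadjusted p under 0.05). Of the 9 genes, 8 were below 0 with a median of -0.16, where 50.6% of all genes were above 0 and the median was 0.0012. In 4 of them, Penk, Vip, Tac1 and Crh, both arrays of 4 weeks were below both of 1 week, against 27.7% of all genes without overlap in either direction and 15.1% without overlap and lower. Without saline 1 week array 2 Tac1 stood at -0.07, Npy at -0.33 and Sst at -0.16. Gal stood at -0.10 without saline 4 weeks array 1 and at -0.44 without saline 4 weeks array 2. Crh stayed between -0.31 and -0.12 when any 1 array was left out.

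The change from 1 to 4 weeks in MPTP mice is the comparison that chose Penk, and nothing is drawn from it. Penk stood at -0.88 ± 0.31, a fold of 0.54, rank 5 from the lowest of 19938 genes, and the nearest arrays of the 2 times were 0.31 apart. Without MPTP 1 week array 1 the value was -1.20, and without MPTP 1 week array 2 it was -0.57. Tac1 stood at -0.23 ± 0.11 and Crh at -0.22 ± 0.10, next to -0.20 and -0.22 in saline. Gal stood at -0.13 ± 0.14, Cck at -0.11 ± 0.09, Sst at 0.11 ± 0.09, Vip at 0.09 ± 0.10, Npy at -0.0081 ± 0.13 and Adcyap1 at 0.0062 ± 0.11. Of the 9 genes, 5 had no overlap between times (Penk, Tac1, Cck and Crh lower, Sst higher), where 44.3% of all genes had none and 21.5% had none and were lower.

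**Figure D4:**
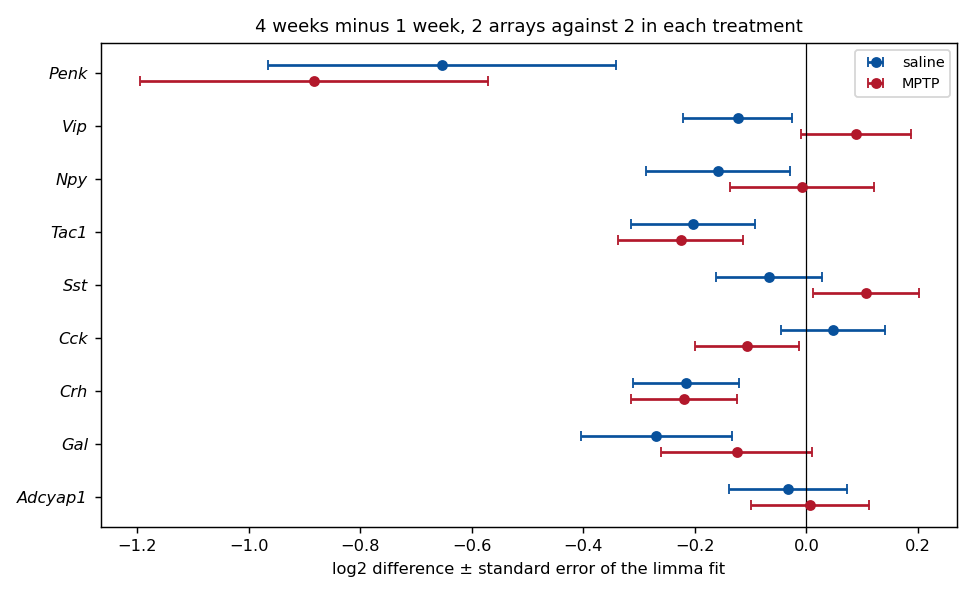
Log2 difference between 4 weeks and 1 week (horizontal axis) for the 9 genes, in saline (blue) and in MPTP (red), with bars of 1 standard error of the limma fit from 2 arrays against 2. Penk lies lowest in both treatments (-0.65 and -0.88), Tac1 and Crh lie near -0.2 in both, and Adcyap1 lies near 0. Penk was selected on its change in MPTP, so its place there was set by the choice.

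The difference over both treatments is a description added after the values were seen, and it contains the change in the MPTP arrays on which Penk was selected, so nothing is drawn from it for Penk. The difference between 4 weeks and 1 week was -0.77 ± 0.21 for Penk. It was -0.22 ± 0.06 for Crh, -0.21 ± 0.07 for Tac1 and -0.20 ± 0.09 for Gal. The other 5 lay between -0.08 (Npy) and 0.02 (Sst). Tac1 and Crh were the 2 of the 9 genes whose 4 arrays of 1 week all lay above the 4 arrays of 4 weeks, and 3.84% of all genes did so (6.35% had no overlap in either direction). Over the alternatives run for them, Crh ranged from -0.29 to -0.18, Tac1 from -0.27 to -0.15 and Gal from -0.30 to -0.11. The rod markers beside them had a median change of -0.11 in the MPTP arrays, with 12 of 12 below 0, and of -0.03 in saline, with 8 of 12 below 0. The amacrine markers had medians of -0.02 in saline and -7.0e-05 in MPTP, with 11 and 12 of 24 above 0.

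Within the group of 9, Penk and Tac1 varied together over the arrays. Their Pearson r was 0.96 and Spearman rho 0.95 over 8 arrays, r was 0.97 without the 2 arrays that stand apart, 0.92 without the 2 arrays farthest from the median of Penk, and 0.99 on deviations from the group means. With 2 arrays per group the deviations of a group mirror each other, so the last r rests on a single value per group. No other member came near the Pearson r of Tac1 with Penk over all 8 arrays. It was 0.69 for Crh, 0.51 for Adcyap1, 0.50 for Gal, 0.31 for Cck, 0.19 for Vip, 0.03 for Npy and -0.24 for Sst. For these members Spearman rho ran from -0.07 (Sst) to 0.86 (Crh), and r on deviations from the group means from -0.82 (Sst) to 0.79 (Adcyap1). Cck and Penk had r = 0.98 over the 6 arrays without those that stand apart, against 0.31 over all 8. The 2 dim genes Crh and Gal had r = 0.81, and Npy and Gal 0.74. These 36 pairs share arrays, groups and normalization, and the values are descriptions of 8 arrays, given without a p.

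Of 9590 named genes with signal above the median, the 5 most like Penk by Pearson r over the 8 arrays were Optc (0.97), Spop (0.97), Tac1 (0.96), Pde6b (0.96) and Hk2 (0.96), and 33 genes had r above 0.9. Optc encodes opticin, a proteoglycan of the vitreous that is made by the ciliary body. Its signal was 6.77 and 7.91 in saline 1 week, 7.58 and 8.05 in MPTP 1 week, 6.68 and 7.21 in saline 4 weeks, and 6.91 and 7.35 in MPTP 4 weeks. It was the gene among the 5 whose signal moved by a like amount, 0.86 log2 units for each unit of Penk. In all 5 genes the array numbered 2 was the higher in each group, as for Penk. Hk2, hexokinase 2 of photoreceptors, moved by 0.40, Tac1 by 0.24, Pde6b, a subunit of the rod phosphodiesterase and 1 of the rod markers above, by 0.12, and Spop, a ubiquitin ligase adaptor, by 0.08. Without the 2 arrays farthest from the median of Penk the r of these genes was 0.87 to 0.92. At 1 week the lens markers had a mean signal of 7.00 and 7.16 in saline and 6.71 and 7.82 in MPTP. At 4 weeks it was 6.88 and 7.32 in saline and 7.13 and 7.22 in MPTP. Array 2 was the higher in each group there too, and MPTP 1 week array 2 was the highest in the lens list as in Penk, while MPTP 1 week array 1, the third highest in Penk, was the lowest in the lens list. The part of tissue from outside the retina in the Penk signal was not tested.

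**Figure D5:**
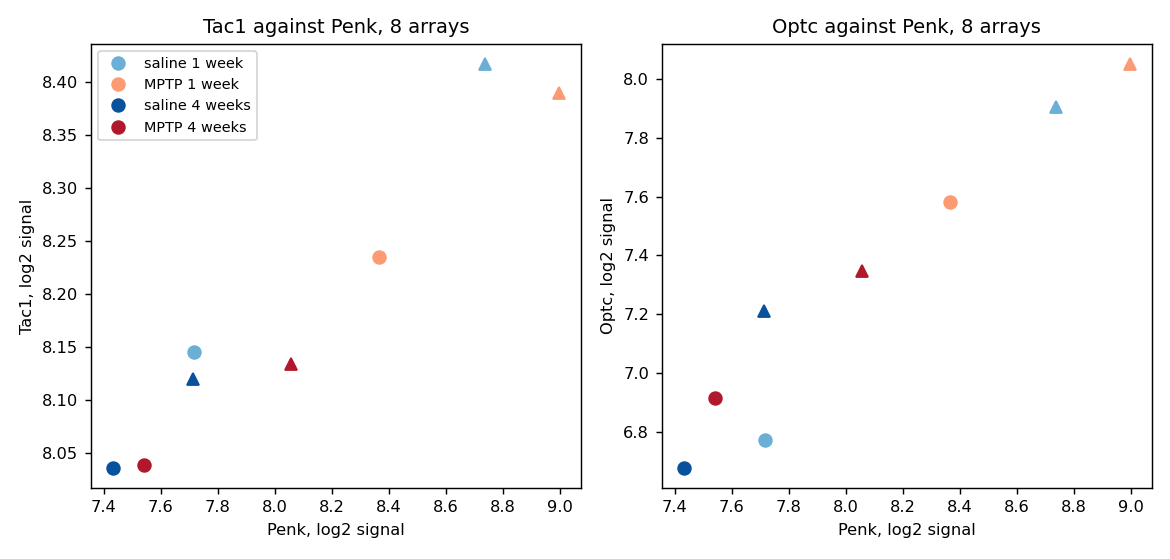
Log2 signal of Tac1 (left) and Optc (right) against that of Penk (horizontal axes) on the 8 arrays, coloured by group, with circles for array 1 and triangles for array 2; the vertical scales differ. Both are higher on arrays with higher Penk (r = 0.96 and 0.97), and the 3 arrays with the highest Penk are from 1 week.

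The receptors of these peptides are G protein-coupled receptors for opioids, VIP and PACAP, neuropeptide Y, tachykinins, somatostatin, cholecystokinin, corticotropin-releasing hormone and galanin. None of the 24 measured passed in any comparison. At 1 week 11 of 24 were above 0 with a median of -0.01, and at 4 weeks 18 of 24 were above 0 with a median of 0.06, next to 46.9% and 51.8% of all genes. Vipr2, the VPAC2 receptor, stood at -0.19 ± 0.09 over both times (limma unadjusted p = 0.0491, adjusted p = 0.973), the smallest p of the list there. Crhr1, the main receptor of CRH, stood at 0.22 ± 0.12 at 4 weeks and -0.0076 ± 0.12 at 1 week. The opioid receptors that bind enkephalin, Oprd1 and Oprm1, stood at 0.05 ± 0.13 and -0.03 ± 0.11 at 1 week and at 0.0058 ± 0.13 and 0.15 ± 0.11 at 4 weeks, and Tacr1, the substance P receptor, at -0.11 ± 0.09 and 0.09 ± 0.09. The mean signal of the receptor list was 6.37 and 6.40 on the 2 arrays that stand apart and 6.51 to 6.59 on the other 6, a difference between arrays that falls within the 1 week groups.

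Of the genes that process prohormones or form dense-core vesicles, 20 of 21 were measured and none passed. The medians were 0.04 at 1 week and 0.02 at 4 weeks with MPTP. Qpct, the glutaminyl cyclase that modifies peptide ends, stood at 0.14 ± 0.06 over both times, and Chga, the vesicle protein chromogranin A, at 0.22 ± 0.10. Of 11 peptide-degrading enzymes, Prep, prolyl endopeptidase, stood at -0.21 ± 0.09 at 1 week and -0.17 ± 0.06 over both times (limma unadjusted p = 0.0194, adjusted p = 0.973). The enzyme list as a whole had 6 of 11 above 0 at 1 week with a median of 0.04. Over both times it had 7 of 11 above 0 with a median of 0.02. Over both times, no list had more than 2 members at an unadjusted p under 0.05 in 1 direction, where 2.30% of all genes were at that p and higher and 2.47% lower. The list with 2 was the activity-induced transcription factors, 2 of 16 and lower. The lists hold 9 to 36 genes, so these counts are not on the scale of those shares.

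Among 36 other neuropeptide precursors measured of 38 listed, none passed. Calcb, the precursor of the beta form of calcitonin gene-related peptide, stood at -0.15 ± 0.09 at 1 week and 0.22 ± 0.09 at 4 weeks, and the difference of these effects was 0.37 ± 0.12 (limma unadjusted p = 0.0114, adjusted p = 0.9999). Npvf, the precursor of RF-amide related peptides, stood at -0.36 ± 0.12 at 1 week, at a dim percentile of 13.7. Crhbp, which binds CRH, had a difference between 4 weeks and 1 week of the same sign as Crh, -0.35 ± 0.13 in saline (limma unadjusted p = 0.0226, adjusted p = 0.9997) and -0.23 ± 0.13 in MPTP. With MPTP it stood at 0.12 ± 0.13 at 1 week and 0.23 ± 0.13 at 4 weeks, the sign of Crh in both. The signal of Crh cannot be separated from background. The list had 26 of 36 above 0 at 4 weeks with a median of 0.06, and 16 of 36 at 1 week with a median of -0.02.

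The cyclic AMP and CREB pathway (25 of 27 genes measured) had a median of -0.03 at 1 week and -0.07 at 4 weeks with MPTP, with 10 and 5 of 25 above 0, and none passed. Prkacb, a catalytic subunit of protein kinase A, stood at -0.24 ± 0.11 at 1 week and -0.20 ± 0.11 at 4 weeks, and Pde4d, a cyclic AMP phosphodiesterase, at -0.26 ± 0.11 at 4 weeks. Of 16 activity-induced transcription factors, Fos stood at 0.27 ± 0.13 at 1 week and -0.19 ± 0.13 at 4 weeks, with a difference of -0.46 ± 0.18 (limma unadjusted p = 0.0275, adjusted p = 0.9999), and Egr1 at 0.41 ± 0.24 and -0.36 ± 0.24. Among the amacrine markers, Tfap2a, a transcription factor of amacrine cells, stood at 0.27 ± 0.09 at 1 week and -0.11 ± 0.09 at 4 weeks, with a difference of -0.38 ± 0.13 (limma unadjusted p = 0.0179, adjusted p = 0.9999). The median of the amacrine list was -0.0071 at 1 week and -0.01 at 4 weeks with MPTP, and that of the ganglion cell list -8.0e-04 and 0.02.

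Single markers of other cells also differed between MPTP and saline, without passing the test. Rlbp1, which carries retinal in Mueller glia and in the pigment epithelium, stood at -0.40 ± 0.08 over both times (limma unadjusted p = 0.00043, adjusted p = 0.973). Over both times the ganglion cell list was split evenly, with 9 of 18 above 0: Nrn1 stood at -0.30 ± 0.08 and Pou4f1 at 0.17 ± 0.07. The rod list had 7 of 12 above 0 with a median of 0.0085: Rom1, a protein of rod outer segments, stood at 0.20 ± 0.06 and Prph2, its partner there, at -0.16 ± 0.06. Th, the enzyme that makes dopamine in a class of amacrine cells, stood at -0.16 ± 0.09 at 1 week and -0.02 ± 0.09 at 4 weeks. The part of such differences in the neuropeptide values was not tested.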

How the data were processed

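RNA of 4 pooled retinas per array (100 ng in the labelling reaction, biotin label, per the labels' protocols) was measured on 8 arrays. The values the authors deposited are on the log2 scale, 1 per probe set; the submitters' processing notes name Affymetrix Expression Console and RMA, and no source used here gives versions or batches. The number of arrays limits the precision. Of 28944 probe sets, 21789 name exactly 1 gene in the platform annotation, and for each of 19938 genes the probe set with the highest mean was kept. Every gene was fitted with limma 3.58.1 in R 4.3.3 (lmFit, eBayes, two-sided), with a mean per group, or with additive time and treatment terms for values over both times or both treatments. Adjusted p-values are Benjamini-Hochberg values across the 19938 genes with a threshold of 0.05, and ± is the standard error. The fitting script was checked on simulated arrays.

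The members and gene lists were chosen with earlier results of these data known, so no pattern here is independent support for those results. The text names all 9 members, the 5 genes most like Penk (predicted models left out) and, in each list, members with the smallest or second smallest unadjusted p in some comparison. Oprd1 and, at 1 and 4 weeks, Th are outside that rule and were chosen after their values were seen. Replicate numbers were not taken to pair arrays. Alternatives were quantile, cyclic loess and median scaling, genes above percentile 50 only, the mean of probe sets, and eBayes with a trend and robust. Further alternatives were only the compared groups, the replicate block, each array left out, and both arrays that stand apart left out. The change over both treatments, the olfactory receptor scale and the array-number count were added after seeing the data.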

Additional observations from a re-analysis of the deposited data

How the results depend on the processing

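Of 1023 member values under alternatives, 935 kept the sign of the reported value and 88 did not; 34 of 63 member results changed sign at least once. Over all genes, deviations of same-numbered arrays from their group means had correlations from -0.38 to 0.21, which cannot decide on pairing in a part of the genes. The labels do not say what the array numbers mean. With the replicate block 0 genes passed in each comparison. The standard error of Penk was then 0.16 in place of 0.31 for the change in saline, with the same value of -0.65. It moved the other way with eBayes with a trend and robust, to 0.42 in place of 0.31 for MPTP at 1 week. That setting also raised the standard error of Crh at 1 week, to 0.13 in place of 0.10. In the fit by groups the standard error of Crh at 1 week also holds for its change in saline. Penk in the change in MPTP was -1.20 without the 2 arrays that stand apart, and from -1.20 to -0.57 with each array left out. In that comparison 1 gene, Rny1, named after its value was seen, passed without MPTP 1 week array 1 (limma adjusted p = 0.0117) and without the 2 arrays that stand apart (0.0374), so the number called ran from 0 to 1. In the other comparisons of the design no alternative gave a called gene. Without the 2 arrays that stand apart, the sign turned, with Sst at -0.072 and Adcyap1 at 0.18 for MPTP at 1 week, Vip at 0.018 and Npy at -0.017 and Adcyap1 at 0.069 for MPTP over both times, Crh at 0.040 and Adcyap1 at -0.17 for the difference between times, Cck at -0.028 and Adcyap1 at 0.064 for the change in saline. After quantile normalization, the sign turned, with Gal at 0.000143 and Adcyap1 at 0.00069 for MPTP at 1 week, Adcyap1 at -0.023 for MPTP at 4 weeks, Tac1 at 0.018 and Adcyap1 at -0.023 for the difference between times. After cyclic loess normalization, the sign turned, with Gal at 0.015 for MPTP at 1 week, Adcyap1 at -0.021 for MPTP at 4 weeks, Tac1 at 0.024 and Adcyap1 at -0.020 for the difference between times. With each array set to a common median, the sign turned, with Tac1 at -0.00694 and Adcyap1 at -0.00335 for MPTP at 4 weeks. With each array left out in turn, MPTP at 1 week ran from -0.23 to 0.12 for Npy, -0.10 to 0.17 for Tac1, -0.073 to 0.12 for Sst, -0.14 to 0.083 for Gal, -0.14 to 0.084 for Adcyap1. With each array left out in turn, MPTP at 4 weeks ran from -0.038 to 0.19 for Vip, -0.035 to 0.23 for Npy, -0.040 to 0.056 for Tac1, -0.057 to 0.28 for Gal, -0.00765 to 0.031 for Adcyap1. With each array left out in turn, MPTP over both times ran from -0.097 to 0.00738 for Vip, -0.047 to 0.10 for Npy, -0.037 to 0.072 for Tac1, -0.041 to 0.10 for Gal, -0.049 to 0.041 for Adcyap1. With each array left out in turn, the difference between times ran from -0.020 to 0.32 for Npy, -0.16 to 0.11 for Tac1, -0.097 to 0.090 for Crh, -0.027 to 0.31 for Gal, -0.072 to 0.15 for Adcyap1. With each array left out in turn, the change in saline ran from -0.33 to 0.012 for Npy, -0.16 to 0.029 for Sst, -0.028 to 0.12 for Cck, -0.13 to 0.064 for Adcyap1. The cause of these turns was not tested. Levels of Crh and Gal are limited by signal near that of silent genes.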
